A study of Mus musculus with 5 samples.

Results

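The 41 genes described here encode the enzymes and loading factors of DNA replication. They were chosen by name, with earlier results of these data known. They cover origin licensing, the MCM helicase with its GINS and Cdc45 partners, the sliding clamp and its loader, the polymerases, nucleotide supply, and the handling of Okazaki fragments and new chromatin. Of the 41, 40 had a probe set annotated to them alone, among 22180 genes with such a probe set. The exception was Rfc4, a clamp loader subunit, whose single probe set also carries the name of Eif4a2. The signals came from 5 Affymetrix arrays of mammary epithelial cells of 4-week-old congenic FVB/NJ mice, freed from the inguinal gland without its lymph node. The 2 knockout arrays are of MMTV-Cre+/Mmp14(f/f) mice, in which the mammary tumour virus promoter drives Cre recombinase and Cre removes the floxed Mmp14 gene where it is active. The 3 wild-type arrays are of Mmp14(f/f) littermates with the same floxed alleles, for which no Cre is named, so loss of Mmp14 and presence of Cre cannot be told apart. Stromal cells were reduced by centrifugation after collagenase digestion, and the labels do not say whether an array holds 1 mouse or a pool, so a p-value here measures the spread between these samples.

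DNA replication is prepared in the G1 phase, when the origin recognition complex, Cdc6 and Cdt1 load the ring of Mcm2 to Mcm7 onto DNA. In S phase Cdc45 and GINS join the ring to form the active helicase, primase and polymerase alpha start each strand, and PCNA, loaded by replication factor C, holds the other polymerases on the template. Most of these genes are transcribed in late G1 and S phase under E2F factors and are low in resting cells, so their summed level is widely read as a sign of the share of cycling cells. In the pubertal mammary gland such cells are concentrated in the terminal end buds of the growing ducts.

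The replication genes did not separate knockout from wild type, but they separated the array of knockout 2 from the other 4. With signals in log2 units, 36 of 40 members had a lower mean in the knockout, against 49.5% of all genes. The median difference, knockout minus wild type, was -0.10 log2 units over the members and 0.00 over all genes. Yet no member passed limma's test. Of the 40, 0 had an adjusted p under 0.05 (0.0% of all genes), and 0 had an unadjusted p under 0.05 (1.3% of all genes). The smallest unadjusted p among them was 0.134 and adjusted values ran from 0.919 to 1.0 (limma, two-sided, Benjamini-Hochberg over all genes). In 0 members did both knockout arrays lie below all wild-type arrays (2.8% of all genes), and in 0 did both lie above them (2.63%).

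Knockout 2 was strictly the lowest of the 5 arrays for 32 of 40 members, against 22.5% of all genes. Relative to the mean of the 3 wild-type arrays, the median member stood at -0.23 on the knockout 2 array. On the knockout 1 array it stood at 0.00. The wild-type arrays themselves lay at 0.04, -0.02 and -0.03 for wild type 1, 2 and 3. Knockout 1 was within the wild-type range, ends included, for 26 of 40 members, against 62.4% of all genes, and it was strictly the highest array for 11, against 17.0% of all genes. The members' lower knockout mean thus rested mainly on knockout 2, as without it their median difference was 0.00. Wild type 1 was strictly the highest array for 16 of 40 members, against 3448 of all 22180 genes. Without wild type 1 the members' median difference was -0.07. Compared directly, knockout 2 read below knockout 1 for 33 of 40 members, above it for 6 and equal to it for 1, with a median difference of -0.25. The knockout 2 array also stood apart over all genes: it shared exactly equal values with another array at 18.6% to 20.9% of genes, against 22.4% to 23.9% in the pairs without it. The part of this in the members' values was not tested. In such bulk samples a smaller number of cycling cells and less of each transcript per cell cannot be told apart.

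**Figure D1:**
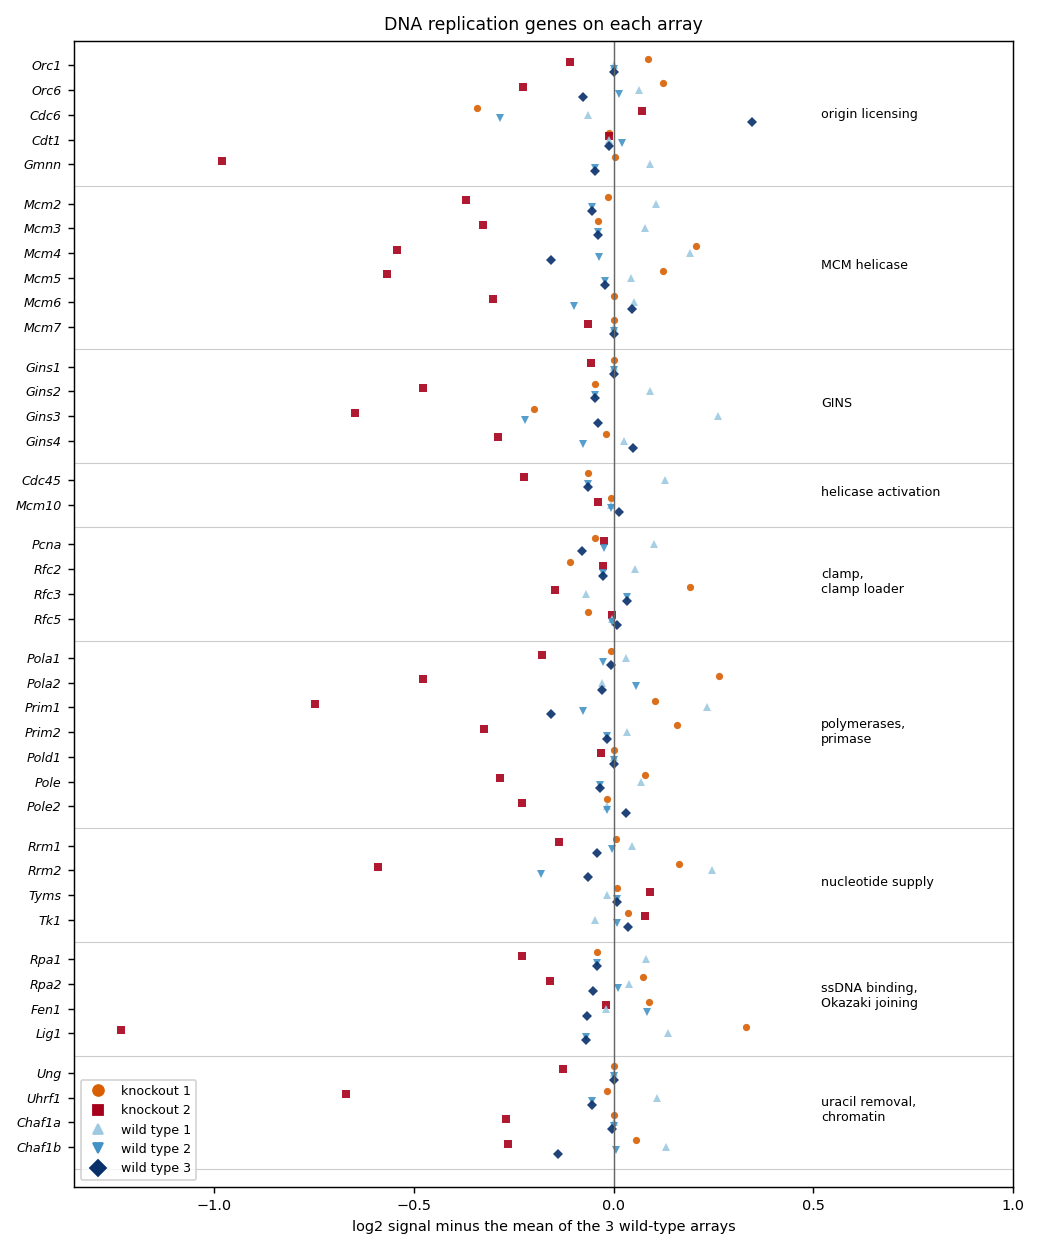
Log2 signal of each of the 40 measured replication genes on each array (x axis), minus the mean of the 3 wild-type arrays, with genes on the y axis grouped by role and each point 1 array; points are spread vertically so that tied arrays can be seen. Knockout 2 (dark red squares) lies lowest for 32 genes and reaches -1.23 at Lig1, while knockout 1 (orange circles) lies among or above the wild-type arrays for most.

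The targeted gene, Mmp14 (probe set 17300279), read 7.98 and 7.28 on knockout 1 and 2 and 8.15, 8.67 and 7.75 on wild type 1 to 3. Its groups overlapped, and its difference of -0.56 ± 0.39 (SE) was not called (limma adjusted p = 0.919). No source used here states where its probes lie relative to the floxed part, so this level does not check the genotype labels. Chosen after their values were seen, the epithelial keratin Krt8 read between 11.34 and 11.48 on every array, and Epcam, an epithelial adhesion protein, between 9.98 and 10.10. Other epithelial markers, chosen likewise, varied more. Krt17 ran from 8.82 on wild type 3 to 9.85 on knockout 1, and Myh11 from 8.49 on knockout 1 to 9.66 on knockout 2. Over all 22180 genes, which do not vary independently of one another, knockout 2 had the lowest correlations with the other arrays. Pearson's r was 0.990 to 0.993 in its 4 pairs with other arrays and 0.994 to 0.996 in the 6 pairs without it. Array numbers in the labels form 2 consecutive runs, with knockout 1, wild type 1 and wild type 2 in the first and wild type 3 and knockout 2 in the second. What a run stands for is not stated.

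Promoters are shown because many replication genes are known as targets of shared cell cycle factors. Whether such factors have a part in the low values on knockout 2 was not tested. Windows of 300 bases, from 250 before to 50 after the annotated start, were found in RefSeq (GRCm38.p6) for 33 of the 41 genes, 38 windows in all. They were searched on both strands for the letters TTTCCCGC, TTTGGCGC, TTTCGCGC and TTTGCCGC, the usual forms of the E2F element. At least 1 of these letter strings stood in 14 of the 38 windows (36.8%) and in 744 of all 32851 windows (2.26%). CCAAT, the letters bound by NF-Y, stood in 22 windows (57.9%), against 37.4% of all. The letters TTTGAA or TTCGAA, forms of the CHR element of mitotic genes, stood in 6 windows (15.8%), against 19.2% of all. The 4 windows below belong to the member with the largest moderated t of the MCM, GINS, polymerase and nucleotide groups. Each is printed 5′ to 3′ on the gene's strand and ends 30 bases past the start, with E2F and CCAAT letters of either strand in capitals. Mcm3 lies at chr1:20820283-20820562 (minus strand), Gins3 at chr8:95633309-95633588 (plus strand), Pole2 at chr12:69228161-69228440 (minus strand) and Tk1 at chr11:117825985-117826264 (minus strand).
Mcm3: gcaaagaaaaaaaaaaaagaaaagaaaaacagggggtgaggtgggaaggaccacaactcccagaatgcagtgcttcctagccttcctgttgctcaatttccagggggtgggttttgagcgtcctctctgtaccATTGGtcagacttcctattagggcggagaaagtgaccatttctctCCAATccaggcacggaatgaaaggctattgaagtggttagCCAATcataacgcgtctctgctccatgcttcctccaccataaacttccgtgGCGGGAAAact
Gins3: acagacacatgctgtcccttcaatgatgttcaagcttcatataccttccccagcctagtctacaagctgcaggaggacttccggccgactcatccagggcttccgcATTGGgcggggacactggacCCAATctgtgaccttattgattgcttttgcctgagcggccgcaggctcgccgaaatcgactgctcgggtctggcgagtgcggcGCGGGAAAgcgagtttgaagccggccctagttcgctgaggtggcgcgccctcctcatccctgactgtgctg
Pole2: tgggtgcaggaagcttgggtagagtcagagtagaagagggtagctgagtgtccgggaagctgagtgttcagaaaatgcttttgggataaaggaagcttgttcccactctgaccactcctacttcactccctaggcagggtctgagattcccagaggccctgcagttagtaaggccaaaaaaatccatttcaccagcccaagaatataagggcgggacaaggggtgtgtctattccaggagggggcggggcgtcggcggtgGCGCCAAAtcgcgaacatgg
Tk1: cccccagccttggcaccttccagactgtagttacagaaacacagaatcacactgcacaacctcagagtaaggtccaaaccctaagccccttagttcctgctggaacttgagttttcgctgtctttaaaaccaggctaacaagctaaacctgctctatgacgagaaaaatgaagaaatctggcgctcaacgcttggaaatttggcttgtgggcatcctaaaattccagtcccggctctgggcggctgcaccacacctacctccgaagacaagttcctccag

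The Mcm3 window holds 3 CCAAT strings and 2 E2F strings, one of which lies in the 20 bases not printed. That of Gins3 holds 2 CCAAT strings and 1 E2F string, that of Pole2 holds 1 E2F string, and that of Tk1 holds neither. Of the 32 measured members with a window, the 14 with E2F letters had a median of -0.20 on knockout 2 relative to wild type and the 18 without had -0.19. Knockout 2 was strictly lowest for 12 of those 14 and 13 of those 18 (the difference was not tested). Among all other measured genes, knockout 2 was strictly lowest for 171 of 540 genes with E2F letters (31.7%) and for 22.5% of the 16418 without. A match of letters is a description and not a bound site.

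Among the licensing genes, the low value of knockout 2 was largest for Gmnn, which encodes geminin, the inhibitor of Cdt1 that blocks a second loading of the helicase. Gmnn read 5.20 on knockout 1 and 4.21 on knockout 2, against 5.28, 5.15 and 5.15 on the wild-type arrays. Knockout 1 sat inside the wild-type range and knockout 2 was 1.97-fold below the wild-type mean. The mean difference was -0.49 ± 0.33 (SE; limma adjusted p = 0.919), the lowest of the 40 members. Cdt1, the loading factor that geminin holds back, read 5.68 on both knockout arrays, on wild type 1 and on wild type 3, and 5.71 on wild type 2, which gave a difference of -0.01 ± 0.02 (SE; limma adjusted p = 0.933). Knockout 2 was thus lowest for the inhibitor and level with 3 other arrays for its target. Of the origin recognition subunits, Orc1 read 4.74 and 4.54 in the knockout against 4.65 on all 3 wild-type arrays, with the knockout arrays on opposite sides. Orc6 read 6.79 and 6.44 against 6.73, 6.68 and 6.59. Cdc6, the ATPase that brings in Cdt1, did not follow the Orc genes. It read 4.45 on knockout 1, the lowest of the 5, and 4.86 on knockout 2, inside a wild-type range of 4.51 to 5.14.

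On the probe sets annotated to them alone, all 6 subunits of the MCM ring were lowest on knockout 2. Mcm2 read 5.42 and 5.06 in the knockout against 5.54, 5.38 and 5.38 in the wild type, and the genotypes differed by -0.19 ± 0.13 (SE; limma adjusted p = 0.919). Mcm3 read 5.88 and 5.59 against 5.996, 5.88 and 5.88, and the genotypes differed by -0.18 ± 0.11 (SE; limma adjusted p = 0.919). In both genes knockout 1 equalled or lay inside the wild-type range. Mcm4 read 6.88 and 6.13 against 6.86, 6.63 and 6.51, and Mcm5 read 6.09 and 5.40 against 6.01, 5.95 and 5.95. For these 2 subunits knockout 1 was the highest of all 5 arrays and knockout 2 the lowest, so the knockout pair spanned the wild type. Mcm6 read 6.89 and 6.59 against 6.94, 6.79 and 6.94. Mcm7 hardly varied, at 6.36 on 4 arrays and 6.30 on knockout 2. A probe set that Mcm7 shares with Mir25 read 5.01 and 5.08 against 5.05, 5.01 and 5.01, so it was highest on knockout 2. Another, shared with Mir93, read 2.62 on every array but wild type 3, where it read 2.64. The median over the 6 subunits, relative to the wild-type mean, was 0.00 on knockout 1 and -0.35 on knockout 2, and the median difference between the genotypes was -0.17.

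**Figure D2:**
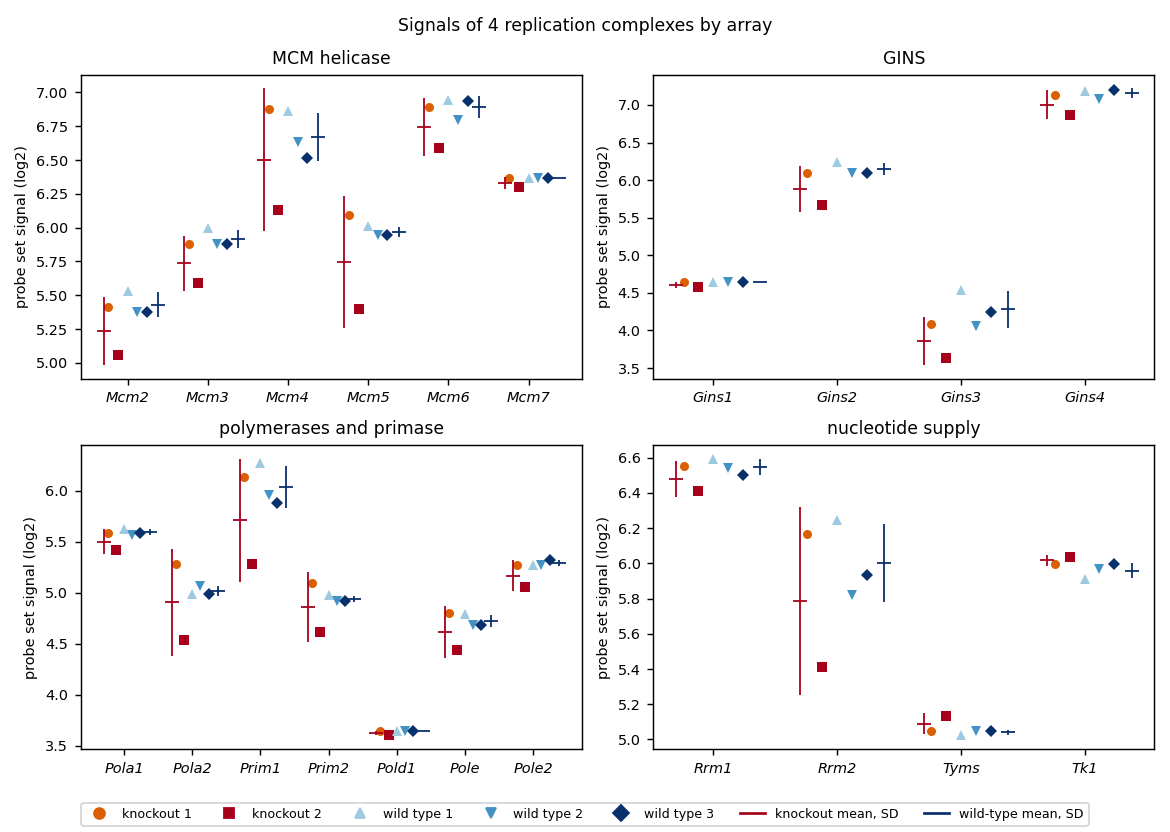
Log2 probe set signal (y axis) of the genes of 4 complexes (x axis) on each array, with the mean and SD of the 2 knockout and 3 wild-type arrays as lines; levels of different genes come from different probes and are not compared. Knockout 2 (squares) is lowest for every MCM, GINS and polymerase gene, whereas Tyms and Tk1 in the nucleotide panel are highest there.

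GINS is a complex of 4 small subunits that ties Cdc45 to the MCM ring, and all 4 were lowest on knockout 2. Gins2 read 6.10 and 5.67 in the knockout against 6.24, 6.10 and 6.10 in the wild type, and the genotypes differed by -0.26 ± 0.15 (SE; limma adjusted p = 0.919). Gins3 read 4.08 and 3.64 against 4.54, 4.06 and 4.24, and the genotypes differed by -0.42 ± 0.22 (SE; limma adjusted p = 0.919). Gins3 had the largest moderated t in size of the 40 members, and its groups still overlapped, because knockout 1 lay above wild type 2. Gins4 read 7.14 and 6.87 against 7.18, 7.08 and 7.20. Gins1 was flat, at 4.64 on 4 arrays and 4.58 on knockout 2. The median GINS gene stood at -0.03 on knockout 1 and -0.38 on knockout 2.

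Cdc45, the third part of the active helicase, read 4.84 and 4.68 in the knockout against 5.03, 4.84 and 4.84 in the wild type. Its difference was -0.14 ± 0.09 (SE; limma adjusted p = 0.919), with knockout 1 equal to 2 wild-type arrays. Mcm10, which helps to start the assembled helicase, moved by little, with 4.65 and 4.62 against 4.65, 4.65 and 4.67 and a difference of -0.02 ± 0.02 (SE; limma adjusted p = 0.919).

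For the sliding clamp and its loader, knockout 2 was lowest in 1 of 4 genes. Pcna, the clamp, read 9.77 and 9.79 in the knockout against 9.92, 9.79 and 9.74, so that both knockout arrays fell inside the wild-type range. Rfc2 read 5.53 and 5.61 against 5.69, 5.61 and 5.61, and the genotypes differed by -0.07 ± 0.04 (SE; limma adjusted p = 0.919). Rfc5 read 6.72 and 6.78 against 6.78, 6.78 and 6.80, and the genotypes differed by -0.03 ± 0.02 (SE; limma adjusted p = 0.919). In these 2 loader subunits the lower array was knockout 1. Rfc3, another loader subunit, went the other way, with 4.61 on knockout 1 and 4.27 on knockout 2 around a wild-type range of 4.35 to 4.45. The probe set that Rfc4 shares with Eif4a2 read 5.45 and 4.87 against 5.44, 5.17 and 5.43, and which of the 2 genes it follows was not tested.

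All 7 polymerase and primase genes were lowest on knockout 2. Prim1, the catalytic primase subunit, showed the widest gap, with 6.14 and 5.29 in the knockout against 6.27, 5.96 and 5.88 in the wild type. Its partner Prim2 read 5.10 and 4.62 against 4.98, 4.93 and 4.93. Of polymerase alpha, the catalytic Pola1 read 5.59 and 5.42 against 5.63, 5.57 and 5.59, and the genotypes differed by -0.09 ± 0.06 (SE; limma adjusted p = 0.919). The accessory Pola2 read 5.28 and 4.54 against 4.99, 5.07 and 4.99. For Pola2, Prim2 and, by a narrow margin, Pole, knockout 1 was the highest array and knockout 2 the lowest. Of the leading strand polymerase epsilon, Pole read 4.80 and 4.44 against 4.79, 4.69 and 4.69. Its second subunit Pole2 read 5.28 and 5.06 against 5.28, 5.28 and 5.32, and the genotypes differed by -0.12 ± 0.07 (SE; limma adjusted p = 0.919). Pold1, of the lagging strand polymerase delta, read 3.64 on 4 arrays and 3.61 on knockout 2, under the median gene at 4.42. Pold1, Gins3 and Ung are the 3 members below that level, and no detection calls were used to tell such signals from background. The group median relative to wild type was 0.08 on knockout 1 and -0.29 on knockout 2.

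The genes of nucleotide supply split. Rrm2, the S phase subunit of ribonucleotide reductase, read 6.17 and 5.41 in the knockout against 6.25, 5.82 and 5.94, so knockout 2 was 1.51-fold below the wild-type mean. Rrm1, its stable partner, read 6.55 and 6.41 against 6.59, 6.54 and 6.50. Tyms and Tk1, which make thymidylate by synthesis and by salvage, did the opposite and were highest on knockout 2. Tyms read 5.05 and 5.13 against 5.02, 5.05 and 5.05, and the genotypes differed by 0.05 ± 0.03 (SE; limma adjusted p = 0.919). Tk1 read 5.996 and 6.04 against 5.91, 5.97 and 5.996, and the genotypes differed by 0.06 ± 0.03 (SE; limma adjusted p = 0.919), the highest of the 40 members. Relative to the wild-type mean, knockout 2 stood at 0.09 for Tyms and 0.08 for Tk1, and at -0.59 for Rrm2. A further probe set, shared by Tyms and its pseudogene Tyms-ps, read 6.07 and 6.41 against 6.30, 6.39 and 6.60. It was lowest on knockout 1 and highest on wild type 3, and its genotypes differed by -0.19, the opposite sign. The rise of Tyms on knockout 2 was thus not seen on both probe sets.

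Lig1, the ligase that seals Okazaki fragments, had the lowest value of any member on knockout 2 relative to wild type. It read 6.74 on knockout 1 and 5.17 on knockout 2, against 6.54, 6.33 and 6.33 in the wild type. Knockout 2 was 2.35-fold below the wild-type mean while knockout 1 was the highest array, and the mean difference of -0.45 ± 0.53 (SE; limma adjusted p = 0.919) hides a gap between the 2 knockout arrays larger than itself. Without knockout 2 the difference of Lig1 was 0.33. Fen1, the nuclease that trims the same fragments, read 5.21 and 5.10 against 5.10, 5.20 and 5.05 and did not follow Lig1. Of the single strand binding complex, Rpa1 read 5.84 and 5.65 against 5.96, 5.84 and 5.84, and the genotypes differed by -0.14 ± 0.08 (SE; limma adjusted p = 0.919). Rpa2 read 5.22 and 4.99 against 5.19, 5.16 and 5.10. Both Rpa genes were lowest on knockout 2.

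The 4 genes that act behind the fork were all lowest on knockout 2. Uhrf1, which reads hemimethylated DNA and recruits the maintenance methyltransferase, read 5.68 and 5.03 in the knockout against 5.81, 5.65 and 5.65, and the genotypes differed by -0.34 ± 0.23 (SE; limma adjusted p = 0.919). Chaf1a and Chaf1b are subunits of the chromatin assembly factor that places histones on new DNA. Chaf1a read 4.68 and 4.41 against 4.68, 4.68 and 4.67, and the genotypes differed by -0.13 ± 0.09 (SE; limma adjusted p = 0.919), and Chaf1b read 4.56 and 4.24 against 4.64, 4.51 and 4.37. Ung, which removes uracil from DNA, lay at 3.46 on 4 arrays and 3.33 on knockout 2, again under the median gene.

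Where a member had 2 probe sets of its own, the dimmer one mostly followed the brighter. For Rrm2, Rpa1 and Pole the second probe set stood at -0.43, -0.49 and -0.33 on knockout 2 relative to wild type, beside -0.59, -0.23 and -0.29 for the first. For Fen1 both stood at -0.02.

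Many values were exactly equal between arrays to 6 decimals, which bears on every test here. Of the 40 members, 13 had 5 different values, and 24 of 40 had at least 2 equal wild-type values, a larger share than the 43.9% of all genes. Wild type 2 and wild type 3 were equal for 18 of 40, against 23.6% of all genes. The low position of knockout 2 was present with and without ties. It was strictly lowest for 11 of the 13 members with 5 different values, where 27.8% of all 6930 such genes had it lowest, and for 21 of the 27 with ties. Fitted without knockout 1, when the lone knockout array is assumed to vary like the wild type, limma called 8 members lower (Orc1, Gmnn, Mcm5, Mcm7, Gins1, Prim2, Ung and Chaf1a), against 4.08% of all genes. All 8 had tied wild-type values, and their differences ran from -0.06 at Gins1 to -0.98 at Gmnn (limma adjusted p = 0.0409 for Gmnn and 0.00809 for Chaf1a, the smallest). Fitted without knockout 2, limma called 1 member, Orc1, and in the opposite direction (difference 0.09, limma adjusted p = 0.0367), against 2.08% of all genes called higher. In that fit the median member stood at 0.00 and 16 of 40 were lower.

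The same split held within the runs of array numbers. In the first run, knockout 1 minus the mean of wild type 1 and 2 had a median of 0.00 over the members, with 16 lower and 17 higher. In the second run, knockout 2 minus wild type 3, 1 array each, had a median of -0.18, with 34 of 40 lower. The second run's wild-type array, wild type 3, was itself strictly lowest for 2 members. What differs between the runs and between the 2 knockout samples was not tested.

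Other lists of the cell cycle were read the same way. They were chosen by their textbook roles but with earlier results of these data known, so they are not independent of them. Of 38 measured further replication genes (origin subunits, accessory polymerase subunits, nucleotide enzymes, fork protection and kinases), 24 had a lower and 11 a higher knockout mean, 3 were equal, 0 were called, and the median difference was -0.02. Knockout 2 was strictly lowest for 18 of them, or 47.4%. The 2 with the largest moderated t were Dtymk, thymidylate kinase, at -0.10 ± 0.06 (SE), and Rrm2b, the p53-induced reductase subunit, at -0.07 ± 0.04 (SE; limma adjusted p = 0.919 for both). Of 27 regulators of the G1 to S step (E2F factors, cyclins, their kinases and inhibitors, pocket proteins), 13 had a lower and 14 a higher mean and 0 were called. Their median was 0.00 on knockout 2 and 0.01 on knockout 1. E2f4, mainly a repressor, read 7.28 and 7.39 against 6.97, 7.27 and 7.13. Cdc25a, the phosphatase that activates Cdk2, read 5.35 and 4.99 against 4.79, 4.99 and 4.99, so neither was lowest on knockout 2. For E2f4 the lower knockout array, 7.276, was just above the highest wild-type array, 7.271. Knockout 2 was strictly lowest for 9 of the 27 regulators (33.3%), so the list's median of 0.00 covers members that went both ways. Chosen after their values were seen, E2f8, an atypical E2F repressor, read 4.84 and 3.43 against 4.68, 4.62 and 4.62, and Ccna2, the S phase cyclin A, read 6.39 and 5.55 against 6.08, 5.96 and 5.71. Relative to the wild-type mean these were -1.21 and -0.37 on knockout 2, and E2f2 and E2f7 stood at -0.31 and -0.24. E2f2 read 2.94 to 3.44 over the 5 arrays and E2f7 read 4.07 to 4.44, near or under the median gene at 4.42. Other regulators, chosen likewise, stood above the wild-type mean on knockout 2, with Ccnd2 at 0.35, E2f4 at 0.26 and Myc at 0.19. Of the 27, 13 stood below that mean on knockout 2. The difference between this list and the replication members was not tested.

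The mitosis genes parted the 2 knockout arrays further. Of 23 measured, 21 were strictly lowest on knockout 2 and 17 strictly highest on knockout 1, and the list medians relative to wild type were -0.32 and 0.19. The 2 with the largest moderated t were Kif11, the spindle kinesin, with 6.14 and 5.57 in the knockout against 6.24, 6.15 and 6.10, and Birc5, survivin, with 5.83 and 5.59 against 5.85, 5.83 and 5.83. The limma adjusted p was 0.919 for both. For the replication members the corresponding counts were 32 of 40 lowest on knockout 2 and 11 of 40 highest on knockout 1. On knockout 1 the median replication member stood at 0.00 while the median mitosis gene stood at 0.19, a difference between the lists that was not tested.

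**Figure D3:**
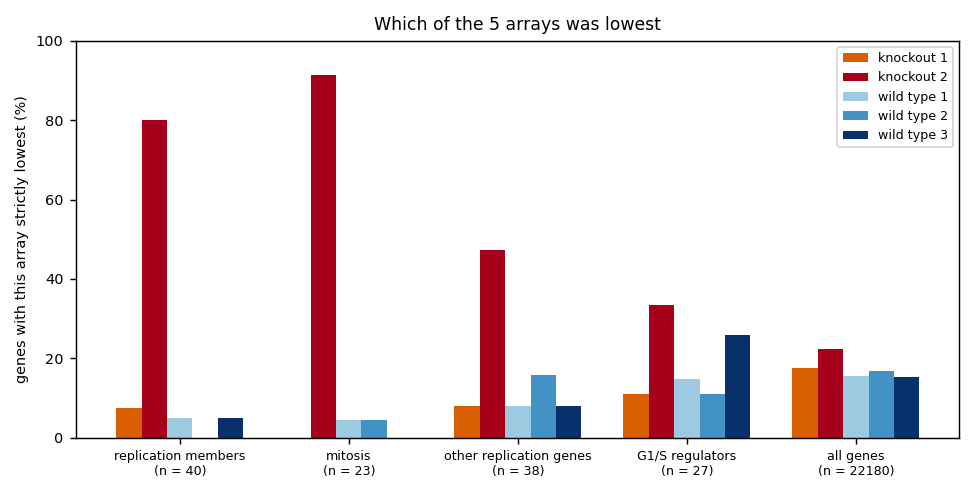
Share of genes (y axis, percent) for which each array was strictly the lowest of the 5, for the replication genes, 3 related lists and all genes (x axis). Knockout 2 is lowest for 80.0% of replication and 91.3% of mitosis genes, 47.4% of other replication genes, 33.3% of G1/S regulators and 22.5% of all genes.

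Markers of the cells in the preparation were set beside these values. Of 16 epithelial markers 14 were measured, and their mean level ran from 8.57 to 8.70 in the knockout and from 8.55 to 8.73 in the wild type. Their median relative to wild type was 0.08 on knockout 1 and -0.01 on knockout 2. Elf5, a factor of luminal progenitors, read 5.20 and 5.03 against 5.42, 5.20 and 5.20, and Esr1, the oestrogen receptor, read 6.07 and 6.12 against 5.86, 6.01 and 6.01 (limma adjusted p = 0.919 for both). The 8 fibroblast markers had a mean level of 8.61 and 8.82 in the knockout and of 8.37 to 8.95 in the wild type. The 8 endothelial markers, led by Kdr and Plvap, had 6.45 and 7.07 against 6.74 to 7.17, and 7 of 8 were lowest on knockout 1. The 8 genes of the macrophage list, led by Ptprc and C1qa, had 5.48 and 5.21 against 5.24 to 5.80. Relative to wild type their medians were -0.42 on knockout 2 and -0.39 on wild type 3. Ptprc is a gene of leukocytes in general and not of macrophages alone. It read 5.34 and 5.03 against 6.73, 5.87 and 5.34. The 7 measured of 8 lymphocyte markers, led by Cd79a and Cd79b, had 4.03 and 4.14 against 4.18 to 4.66, and 4 of them lay below the median gene. The upper end of 4.66 was that of wild type 1. All 7 had a lower knockout mean and 0 were called. In 2 of the 7, Cd79a and Cd79b, both knockout arrays lay below all wild-type arrays (2.8% of all genes). The 7 measured of 8 adipocyte markers, at 5.51 and 5.71 against 5.58 to 5.67, had a median difference of 0.00, with knockout 1 below and knockout 2 above the wild-type range. The lipid carrier Fabp4 stood at -0.42 and 0.40 on them relative to wild type, and Pparg, the adipocyte nuclear receptor, at -0.37 and 0.37, both chosen after their values were seen. The rest of the list did not share this spread. Plin1 and Cidec, with the largest moderated t, stood at 0.01 and 0.05 on both knockout arrays. Adipoq stood at -0.01 on both, Lep at 0.03 and -0.02, and Lpl at -0.004 and -0.09. Within the epithelial list, knockout 2 was strictly lowest for 5 of 14 markers. Chosen after their values were seen, Kit, a receptor of luminal progenitors, read 6.91 and 6.35 against 7.11, 6.98 and 6.73, and Pgr, the progesterone receptor, read 7.10 and 6.55 against 7.11, 7.10 and 7.10. The contractile gene Myh11 went the other way, with 8.49 and 9.66 against 8.68, 9.59 and 8.97, and Acta2, smooth muscle actin, read 9.75 and 9.87 against 9.45, 10.05 and 9.50. On knockout 2, then, the mean epithelial level was inside the wild-type range. The level of the macrophage list (5.21, against 5.24 at the range's lower end) and of the lymphocyte list (4.14, against 4.18) were narrowly below it. The mean adipocyte level was above it there, though in that list only Fabp4 and Pparg stood far from wild type. On knockout 1 the endothelial, lymphocyte and adipocyte levels were below it, the last again through Fabp4 and Pparg. The part of these cells in the replication values was not tested.

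**Figure D4:**
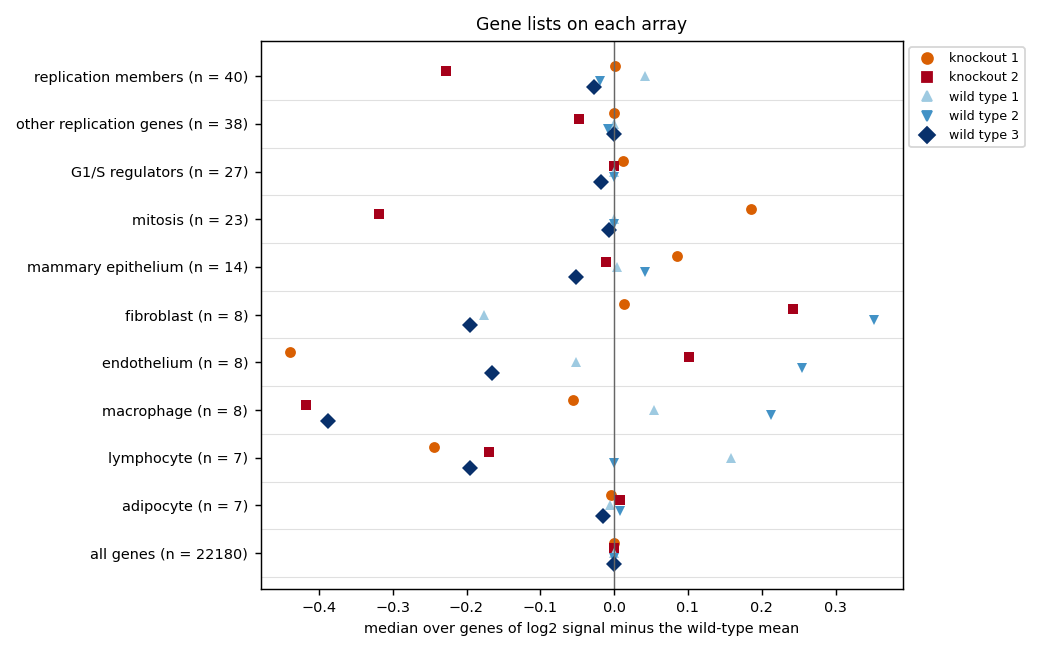
Median over the genes of each list (y axis, with the number measured) of the log2 signal minus the wild-type mean (x axis), 1 point per array. The replication and mitosis lists place knockout 2 at -0.23 and -0.32, apart from the other arrays, while the epithelial list places it at -0.01 and the endothelial list sets knockout 1 apart at -0.44.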

How the data were processed

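Per the labels, RNA of 5 samples (10 ng each) was labelled with a whole-transcript kit and hybridised to Affymetrix arrays. The authors deposited 1 log2 signal for each probe set and array. The submitters' processing notes name RMA, which corrects background, normalises by quantiles and sums probes by median polish, and limma, both without a version. Array medians lay between 4.24 and 4.29.

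Of 41345 probe sets, 23521 have 1 gene symbol in the platform annotation, 1814 have several and 16010 are unnamed here. The brightest probe set of each gene over all 5 arrays was kept, which left 22180 genes. No detection calls were used. Precision is limited by having 5 arrays. Knockout minus wild type was fitted across all genes on genotype alone, using lmFit and eBayes of limma (version 3.58.1, under R 4.3.3). Benjamini-Hochberg adjusted p-values cover all 22180 genes, and those under 0.05 are called. The fit was tested on simulated data without ties, with changes larger than any mean difference of the members. That test does not show how the fit behaves on values like theirs. SE is limma's moderated SE. Values equal to 6 decimals count as tied.

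The members and lists were chosen with earlier results of these data known. All members may be named by level. The difference with SE was given for the 2 members per role group (9 groups) with the largest moderated t in size, and for the extreme differences. Of each context list the 2 genes with the largest moderated t were eligible to be named, and Krt8, Epcam, further genes so marked in the text and the genes called with 1 array left out were named after their values were seen.

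Alternatives were quantile normalisation, median centring, dropping dim genes, averaging the probe sets of each gene, an intensity trend with a robust prior, array weights, the run of array numbers as a block, single runs, the replicate number as a block, and each array left out. A fit of genes with 5 different values was chosen after seeing the data. Promoter windows are from RefSeq GRCm38.p6.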

Additional observations from a re-analysis of the deposited data

How the results depend on the processing

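Of the members, 0 were called in every setting tried that kept both knockout arrays, and in the first run alone. The number with a lower knockout mean stayed between 34 and 36 in these settings, except in the first run alone (16) and among the 13 members with 5 different values, a restriction chosen after seeing the data (12). Blocking on the replicate number, the members' median was -0.10, 35 of 40 were lower and Mmp14 was at -0.78 (limma adjusted p = 0.856). Deviations of knockout 1 correlated at 0.25 with those of wild type 1. Those of knockout 2 correlated at -0.04 with wild type 2 and at 0.26 with wild type 3. With 2 knockout arrays the deviations of one mirror those of the other, so these correlations cannot decide whether the numbers mark pairs. The labels do not say that they do, and the main fit did not take them as pairs. Within the first run medians were 0.00 for all members, 0.012 for MCM, -0.034 for GINS and 0.034 for nucleotide supply, and within the second -0.33 for MCM, -0.39 for GINS and -0.26 for polymerases. Among genes with 5 different values, polymerases (1 gene) were at -0.32 and nucleotide supply (2 genes) at -0.14. The sign of Cdt1 turned with quantile normalisation (0.0093) and that of Lig1 in the first run (0.30). With 1 array left out, called genes ranged from 0 to 1757 and called members from 0 to 8. The number of lower members ranged from 16 to 37, and medians from -0.23 to 0.0010 (all members), -0.35 to 0.0010 (MCM), -0.38 to -0.032 (GINS), -0.29 to 0.078 (polymerases) and -0.030 to 0.023 (nucleotide supply). Single differences ranged from -0.98 to 0.0039 for Gmnn, from -1.23 to 0.33 for Lig1 and from -0.27 to 0.0024 for Chaf1a, with the upper ends reached without knockout 2 and the lower without knockout 1, which also gave the 1757 and 8 calls (835 and 1 without knockout 2). The cause was not tested.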
